A study of Mus musculus with 12 samples.

Results

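The genes described here are 7 regulators of growth arrest in the mouse hippocampus: Gadd45a, Gadd45b, Gadd45g, Btg1, Btg2, Cdkn1a and Cdkn2d. They were read by the 9 probe sets, of 12422 tested, whose platform annotation gave exactly 1 symbol and that symbol was one of these names. Gadd45b and Cdkn1a each had a brighter and a dimmer probe set, and the other genes had 1. The genes were chosen on the kainate responses and genotype differences of these same arrays, so their values stand below as a description. No p value is printed for any member, and the counts of members past a threshold, adjusted or not, support nothing. Total RNA was hybridised to 12 Affymetrix mouse arrays, 3 in each of 4 groups: mutant mice given kainate, mutant mice given saline, control mice given kainate and control mice given saline. According to the title of the series the mutants lacked CREB and CREM, which are transcription factors. Neither the alleles, nor the strain, nor the cells in which the genes were disrupted are given in the labels. Kainate, a glutamate receptor agonist that evokes seizures, was injected intraperitoneally at 20 mg/kg into male and female littermates aged 5 to 6 weeks that had been caged singly, and hippocampi were taken 1 hour later. RNA from 3 animals was pooled for each array, and the spread between replicates is therefore a spread between pools.

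Gadd45 proteins are small acidic proteins without enzyme activity of their own that bind kinases of the p38 and JNK pathways, the replication clamp PCNA and cyclin B with its kinase. In neurons Gadd45b is known as an activity-induced gene tied to DNA demethylation in the dentate gyrus. Btg1 and Btg2 belong to the BTG/TOB family of antiproliferative proteins, which bring the CCR4-NOT deadenylase to messenger RNAs and shorten their poly(A) tails. Cdkn1a (p21) inhibits cyclin-CDK complexes and is the classical target of p53, while Cdkn2d (p19INK4d) binds and inhibits CDK4 and CDK6. CREB and CREM bind the cAMP response element (CRE) and its shorter core in promoters of activity-regulated genes.

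Promoter windows were read from RefSeq (GRCm38.p6), 250 bases before to 50 after each annotated start, and all 7 genes had one, with a second start for Cdkn1a. The 4 windows that held a searched motif are shown, since they belong to the most induced members and to Btg1, the relative of Btg2. Each is printed 5′ to 3′ on the strand of the gene, and capitals mark the matches, on either strand except for the TATA box, to the CRE TGACGTCA, its core TGACG, the E-box CACGTG and the TATA box TATAAA.
Btg2, chr1:134079106-134079405, minus strand: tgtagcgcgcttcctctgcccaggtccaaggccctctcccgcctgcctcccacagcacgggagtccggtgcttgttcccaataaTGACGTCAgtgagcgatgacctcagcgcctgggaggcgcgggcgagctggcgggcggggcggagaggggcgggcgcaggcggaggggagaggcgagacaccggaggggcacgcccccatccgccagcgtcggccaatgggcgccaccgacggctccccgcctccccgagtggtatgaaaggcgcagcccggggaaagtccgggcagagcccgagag
Btg1, chr10:96616751-96617050, plus strand: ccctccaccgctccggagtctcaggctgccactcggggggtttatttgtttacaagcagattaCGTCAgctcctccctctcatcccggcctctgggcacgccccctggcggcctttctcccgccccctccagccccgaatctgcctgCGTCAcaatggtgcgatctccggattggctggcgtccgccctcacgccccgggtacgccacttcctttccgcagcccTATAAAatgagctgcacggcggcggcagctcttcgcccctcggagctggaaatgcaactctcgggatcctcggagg
Gadd45b, chr10:80929841-80930140, plus strand: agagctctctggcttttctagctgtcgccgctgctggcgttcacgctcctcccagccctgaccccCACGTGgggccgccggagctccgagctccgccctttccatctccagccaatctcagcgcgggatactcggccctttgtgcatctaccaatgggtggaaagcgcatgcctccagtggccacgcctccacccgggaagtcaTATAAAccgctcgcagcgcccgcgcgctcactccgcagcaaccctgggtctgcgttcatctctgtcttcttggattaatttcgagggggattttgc
Gadd45g, chr13:51846425-51846724, plus strand: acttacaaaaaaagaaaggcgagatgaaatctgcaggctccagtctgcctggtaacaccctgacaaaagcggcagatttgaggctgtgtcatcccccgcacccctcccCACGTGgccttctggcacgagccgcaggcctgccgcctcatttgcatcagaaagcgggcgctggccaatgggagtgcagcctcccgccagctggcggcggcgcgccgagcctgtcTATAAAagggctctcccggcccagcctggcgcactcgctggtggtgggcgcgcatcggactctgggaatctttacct

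The single full CRE among the 8 windows lay in Btg2, beginning 166 bases upstream of the start. A full CRE was present in 1.79% of 32851 RefSeq promoter windows of this length and in 2.6% of the 8409 windows of genes on the array. The core, searched on both strands with matches inside a CRE counted too, was found in 20.8% of all windows and 28.5% of those of array genes. Btg1 had a pair of them, beginning 187 and 103 bases upstream, and both of those in Btg2 lay inside its CRE. A TATA box on the gene's strand, present in 8.32% of all windows and 6.67% of those of array genes, lay 46 bases upstream in Gadd45b, 27 in Gadd45g and 26 in Btg1. An E-box, present in 7.15% of all windows and 9.55% of those of array genes, was found in Gadd45b and Gadd45g. The serum response CArG box, present in 1.63% of all windows and 1.59% of those of array genes, had 0 matches among the members. Neither of the Cdkn1a windows, nor those of Gadd45a and Cdkn2d, held any of these letters. Matches are a description of these windows and not of binding.

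**Figure D1:**
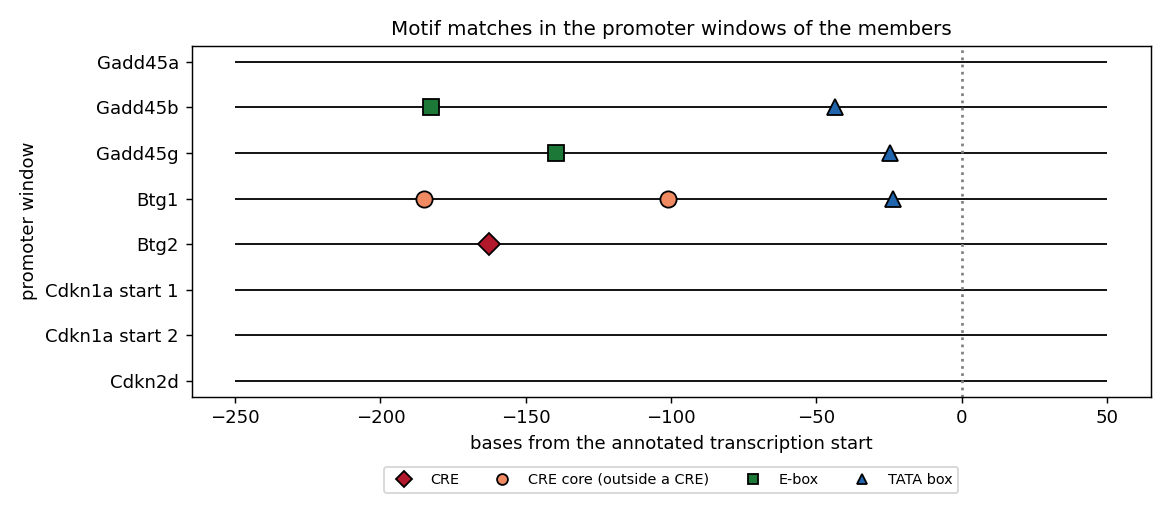
Position of each motif match (symbols) along the 8 promoter windows (lines), in bases from the annotated transcription start, with 1 row per window. Btg2 holds the CRE, Btg1 a pair of CRE cores, and Gadd45b, Gadd45g and Btg1 a TATA box.

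Between any pair of arrays the correlation over probe sets was 0.973 to 0.998. Control kainate replicate 3 stood apart by its narrow distribution, with an interquartile range of 3.74 where the rest had 4.40 to 4.61. The replicate 1 arrays deviated together from their group means, with correlations of 0.368 to 0.848 between groups. Each result below that changes its call without one of these arrays is given both ways. Neuronal markers were present, 6 of 6 above the array median in each group. Group means of the 3 Creb1 probe sets lay between 2.86 and 3.84 in mutant kainate, 2.90 and 3.87 in mutant saline, 3.01 and 4.03 in control kainate and 2.93 and 3.89 in control saline arrays. Those of the 2 Crem probe sets lay between 2.64 and 4.20, 2.66 and 4.27, 2.98 and 4.70, and 2.82 and 4.34 in the same groups. None of these 5 probe sets passed for genotype in limma (adjusted p of 0.0889 or more), and whether they lie within the disrupted parts is not given.

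Gadd45b, which binds the kinase MAP3K4 upstream of p38, separated the genotypes after kainate. All levels are log2 GCRMA values. Its brighter probe set stood at 6.75, 6.60 and 6.54 in the 3 mutant kainate arrays and at 5.82, 5.75 and 5.74 in mutant saline arrays. In control mice it stood at 8.68, 8.14 and 7.81 after kainate and at 5.93, 5.90 and 5.84 after saline. Every kainate array lay above every saline array of its genotype, and every mutant kainate array lay below every control kainate array. Saline arrays differed little, with each mutant value just below each control value.

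The kainate response of this probe set was 0.86 in mutants (SE 0.17, 1.81-fold) and 2.32 in controls (SE 0.17, 4.98-fold). In limma, which was fitted to all probe sets with Benjamini-Hochberg adjustment and a threshold of 0.05, the response passed in controls and did not in mutants. Their difference was -1.46 (SE 0.24) and did not pass over all probe sets. Between genotypes after kainate the difference was -1.58 (SE 0.17, 2.98-fold lower in mutants), which passed. That call was lost with only the arrays compared (-1.58, SE 0.22). After saline the difference was -0.12 (SE 0.17, interval -0.50 to 0.26). The separation after kainate was present at each replicate number, with differences of -1.92, -1.54 and -1.27. Without the control kainate replicate 3 array the difference in response was -1.66 (SE 0.18) and passed, and without control kainate replicate 1 it was -1.22 (SE 0.15) and did not. The response in mutants passed in 7 of 22 alternatives, at 0.84 to 0.86. These were the replicate block, replicate 1 as a batch, quantile normalization, only the arrays compared, array weights, and the fits without control kainate replicate 1 or replicate 3, which enter it only through the shared estimate of the spread.

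The dimmer Gadd45b probe set, of a type that can also bind related sequences, reads the same RNA and is no further replicate. It stood at 5.99, 6.33 and 5.97 in mutant kainate arrays and at 4.61, 5.42 and 5.26 in mutant saline arrays. Control kainate arrays held 8.27, 7.92 and 7.56, and control saline arrays 4.81, 5.33 and 5.39. The order was the same as for the brighter probe set, except that the saline arrays of the genotypes overlapped. Its response was 1.00 (SE 0.25) in mutants and 2.73 (SE 0.25) in controls, a difference of -1.73 (SE 0.35, 95% interval -2.50 to -0.96). The response in controls passed, while that in mutants and the difference in response did not. After kainate the genotypes differed by -1.82 (SE 0.25, 3.52-fold lower in mutants), which passed. That call was lost without mutant kainate replicate 1 (-1.76), mutant kainate replicate 3 (-1.75) or control kainate replicate 2 (-1.81). It was also lost with arrays centred on their medians (-1.74) and with only the arrays compared (-1.82).

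Gadd45g, another member of the family, had similar levels in both genotypes after kainate. It stood at 9.21, 9.91 and 9.58 in mutant kainate arrays and at 3.43, 5.62 and 5.98 in mutant saline arrays. Control kainate arrays held 9.76, 9.51 and 9.58, and control saline arrays 3.26, 5.59 and 4.99. Kainate arrays lay far above saline arrays in both genotypes and overlapped between genotypes. Both low saline values came from replicate 1 arrays, 1 in each genotype.

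The response of Gadd45g was 4.56 (SE 0.67, 23.5-fold) in mutants and 5.00 (SE 0.67, 32.0-fold) in controls, and it passed in both. Between genotypes the response differed by -0.44, with an interval of -2.54 to 1.65 that leaves room for a difference as large as that of Gadd45b. Within replicates 2 and 3 the response was 3.94 in mutants and 4.25 in controls, against 5.78 and 6.49 within replicate 1. After kainate the genotypes differed by -0.05 (SE 0.67). The call in mutants was lost without mutant kainate replicate 2 (4.38) or mutant kainate replicate 3 (4.55), and with only the arrays compared (4.56).

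Gadd45a, the DNA damage inducible founder of the family and a p53 target, stayed within a narrow range. Its levels were 6.07, 6.07 and 6.38 in mutant kainate, 6.10, 6.18 and 6.06 in mutant saline, 6.09, 6.17 and 5.64 in control kainate and 5.72, 5.99 and 5.90 in control saline arrays. Neighbouring groups overlapped throughout. Its kainate response was 0.06 (SE 0.14, interval -0.26 to 0.38) in mutants and 0.10 (SE 0.14, interval -0.22 to 0.42) in controls. Under saline the 3 mutant arrays lay above the 3 control arrays, by 0.24 on average (SE 0.14), which did not pass. The lowest kainate value, 5.64, came from the control kainate replicate 3 array, and without that array the response in controls was 0.26.

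**Figure D2:**
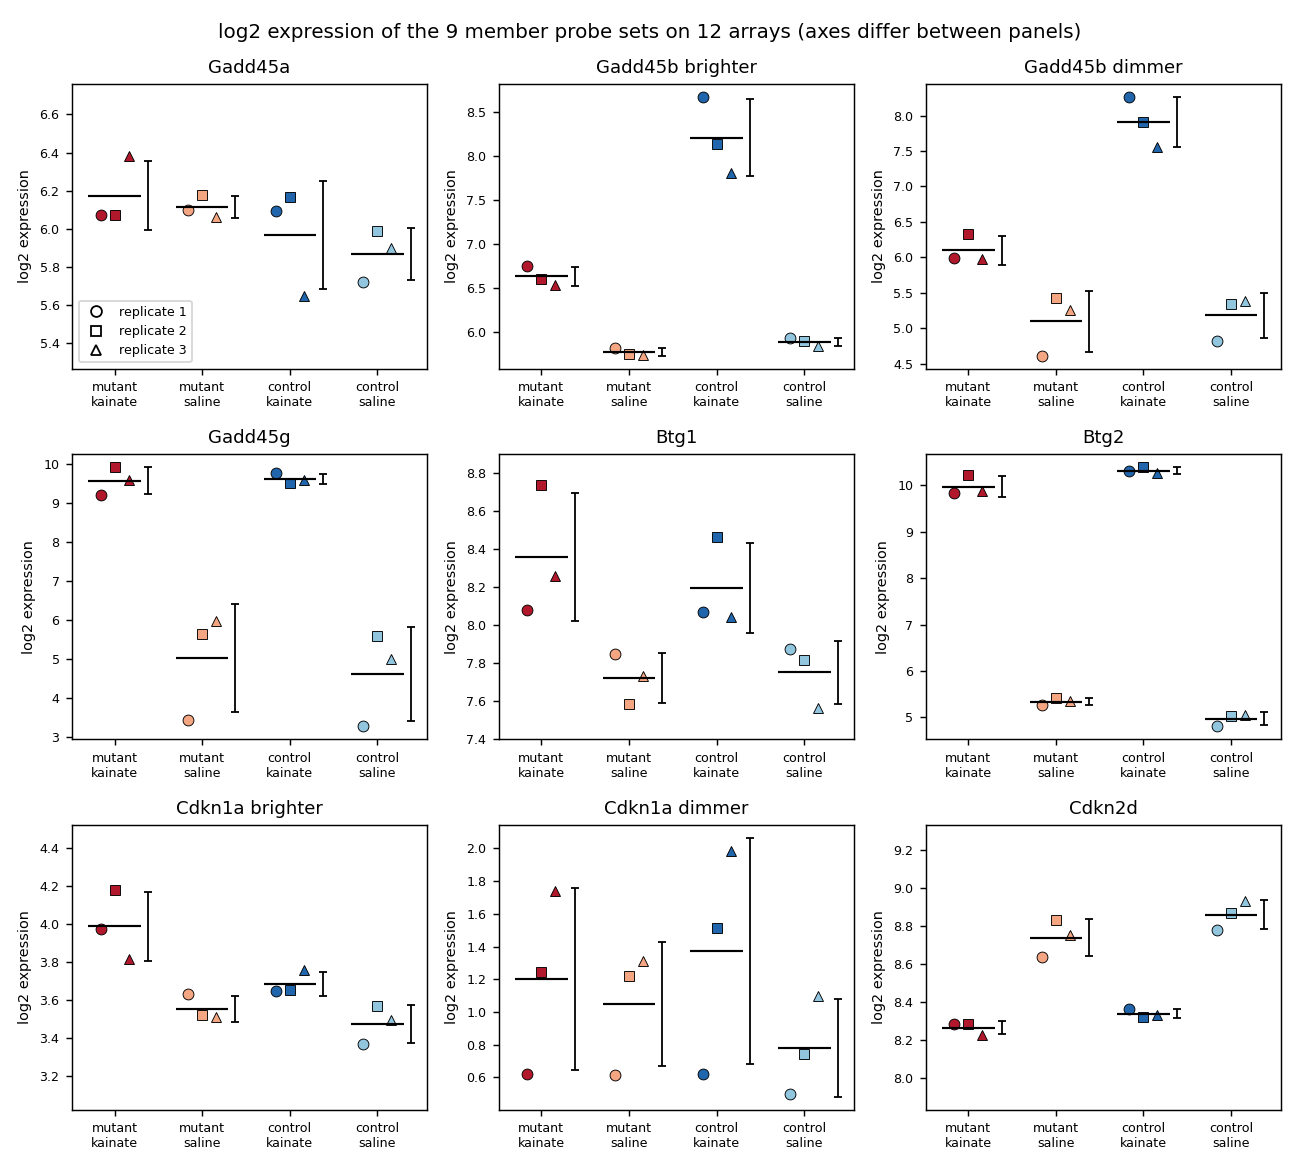
log2 expression of each of the 9 probe sets (panels, each with its own axis) in the 4 groups. Symbols are arrays, by replicate number, horizontal lines are means and bars are SD (n = 3). Gadd45b separates mutant kainate from control kainate arrays, while Gadd45g and Btg2 are high after kainate in both genotypes.

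Btg2, an early response gene and p53 target that recruits deadenylases, was far higher after kainate in both genotypes. It stood at 9.83, 10.23 and 9.87 in mutant kainate arrays and at 5.26, 5.42 and 5.34 in mutant saline arrays. Control kainate arrays held 10.30, 10.40 and 10.26, and control saline arrays 4.80, 5.03 and 5.06. No group overlapped with another. The mutants were above controls under saline and below them after kainate.

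The response of Btg2 was 4.64 (SE 0.12, 24.9-fold) in mutants and 5.36 (SE 0.12, 40.9-fold) in controls. It passed in both genotypes. The difference in response was -0.72 (SE 0.17, interval -1.08 to -0.35), smaller in mutants, and did not pass. This difference was made of a saline part and a kainate part of like size. Under saline the mutants were higher by 0.37 (SE 0.12, 1.30-fold), which did not pass, and after kainate they differed by -0.34 (SE 0.12). Both parts kept their signs at each replicate number, at 0.45, 0.39 and 0.28 under saline and -0.47, -0.17 and -0.39 after kainate. Averaged over treatments the genotypes therefore differed by 0.02 (SE 0.08).

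Btg1, which is closely related to Btg2 and abundant in resting cells, responded far less. Its levels were 8.08, 8.73 and 8.26 in mutant kainate, 7.84, 7.58 and 7.73 in mutant saline, 8.07, 8.46 and 8.04 in control kainate and 7.87, 7.81 and 7.56 in control saline arrays. In each genotype the kainate arrays lay above the saline arrays, and the genotypes overlapped under both treatments. The differences were 0.64 (SE 0.18, 1.56-fold) in mutants and 0.44 (SE 0.18, 1.36-fold) in controls, and neither passed. By replicate number they were 0.24, 1.15 and 0.53 in mutants and 0.20, 0.65 and 0.48 in controls, lowest at replicate 1 in both.

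Cdkn1a was the dimmest member. Its brighter probe set stood at 3.97, 4.18 and 3.82 in mutant kainate, 3.63, 3.52 and 3.51 in mutant saline, 3.65, 3.65 and 3.76 in control kainate and 3.37, 3.57 and 3.50 in control saline arrays. Kainate arrays lay above saline arrays in both genotypes, and mutant kainate arrays lay above control kainate arrays. The sizes were small, at 0.43 (SE 0.10) for kainate in mutants, 0.21 (SE 0.10) for kainate in controls and 0.30 (SE 0.10) between genotypes after kainate, and none passed. The probe set's mean lay at percentile 41.6 of the array. The other probe set, at percentile 2.09, ranged from 0.50 to 1.99 over all arrays, and its groups overlapped for every pair of neighbouring levels. It gave 0.15 (SE 0.37) for kainate in mutants and 0.59 (SE 0.37) in controls, so the probe sets did not share the order of the genotypes.

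Cdkn2d, the inhibitor of CDK4 and CDK6, was the one member that was lower after kainate. It stood at 8.28, 8.28 and 8.23 in mutant kainate arrays and at 8.63, 8.83 and 8.75 in mutant saline arrays. Control kainate arrays held 8.36, 8.32 and 8.33, and control saline arrays 8.78, 8.87 and 8.93. Each kainate array lay below each saline array, and the spread among kainate arrays was narrow (SD 0.03 in mutants and 0.02 in controls). The difference was -0.47 (SE 0.08, 1.39-fold lower) in mutants and -0.52 (SE 0.08, 1.43-fold lower) in controls, and it passed in both. The responses differed between genotypes by 0.05, with an interval of -0.19 to 0.28.

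The calls of Cdkn2d held in 7 of 22 alternatives in mutants and in 14 of 22 in controls, although its difference stayed between -0.55 and -0.43 in mutants and between -0.57 and -0.42 in controls over all of them. Both calls were lost with quantile normalization, arrays centred on their medians, only the arrays compared, replicates 2 and 3 only, and a robust prior that follows intensity, and the call in mutants also with the replicate block and with the filter on level. In mutants it was lost without any one of mutant kainate replicates 1, 2 and 3 (-0.48, -0.48 and -0.45), mutant saline replicates 2 and 3 (-0.43 and -0.47), and control kainate replicate 2, control saline replicate 2 and control saline replicate 3 (-0.47 each). In controls the call was lost without control kainate replicate 2, control saline replicate 2 or control saline replicate 3, at -0.51, -0.52 and -0.48.

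**Figure D3:**
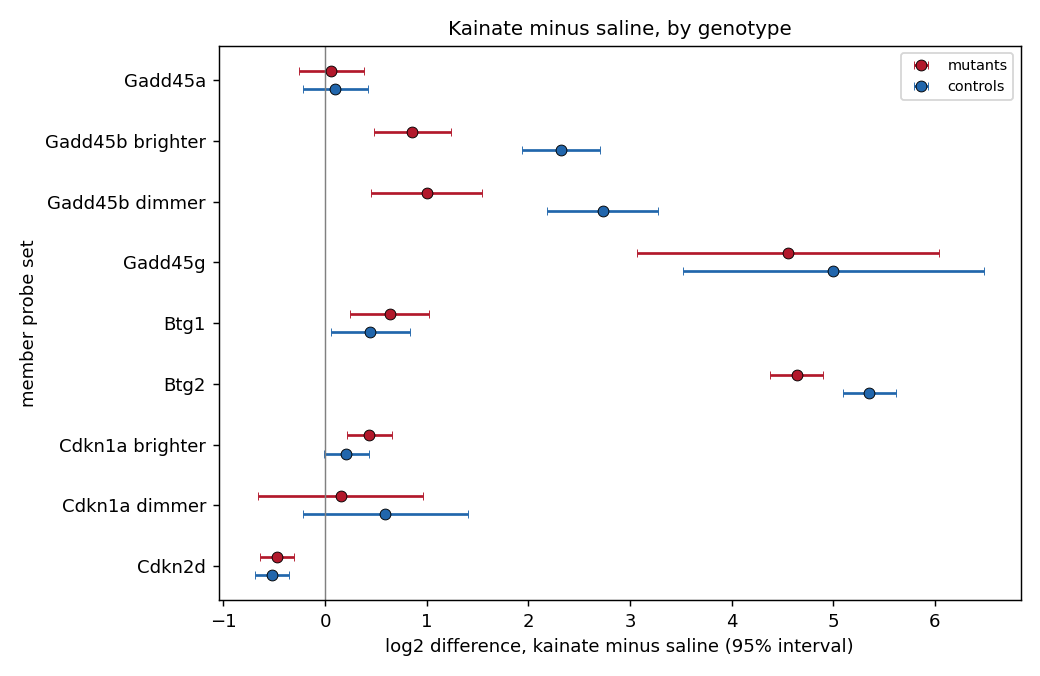
log2 difference of kainate minus saline for each probe set (rows), in mutants (red) and controls (blue). Points are limma estimates with 95% intervals (3 arrays per group). The intervals of the genotypes are apart for Btg2 and for both Gadd45b probe sets, where the response is 0.86 and 1.00 in mutants and 2.32 and 2.73 in controls.

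Of the 9 member probe sets, 2 passed as higher and 1 as lower after kainate in mutants, where 0.266% of all probe sets passed as higher, 0.0322% as lower and 0.298% in either direction. Without mutant kainate replicate 2, or without replicate 3, 1 probe set passed, which was Btg2. In controls 4 passed as higher and 1 as lower, where 0.282% of all passed as higher, 0.0483% as lower and 0.33% in either direction. Kainate arrays lay wholly above saline arrays for 6 member probe sets and wholly below for 1 in each genotype, where these shares were 4.98% and 7.39% of all probe sets in mutants and 2.29% and 4.75% in controls. Nothing is read from these shares, because the members were chosen on those responses. Counting each gene by its brighter probe set, the median difference was 0.64 in mutants and 0.44 in controls, beside -0.02 and 0.05 over all probe sets. Levels of some cell type markers also differed between kainate and saline arrays. The log2 of the summed level of 6 endothelial and blood markers was 11.02 to 11.32 in mutant kainate and 10.25 to 10.67 in mutant saline arrays, and 10.80 to 10.90 in control kainate and 10.48 to 10.64 in control saline arrays. The brightest of them, the haemoglobin gene Hba-a1, differed by 0.77 in mutants and 0.29 in controls. Likewise Cdh5 differed by 0.42 and 0.58, and Tek by 0.55 and 0.25. Flt1 differed by 0.03 and -0.26, Kdr by -0.03 and 0.07, and Pecam1 by 0.00 and 0.15. For 6 neuronal markers the log2 of the summed level was 13.88 to 14.21 in mutant kainate and 14.13 to 14.23 in mutant saline arrays. In controls it was 13.86 to 14.14 after kainate and 14.19 to 14.24 after saline. The mean log2 level of these markers was 9.66 to 10.43 in mutant kainate and 10.44 to 10.68 in mutant saline arrays. In controls this mean was 9.84 to 10.61 after kainate and 10.71 to 10.73 after saline. Map2, a dendritic microtubule protein, differed by -2.13 (SE 0.47) in mutants and -1.99 (SE 0.47) in controls. In the same order Syt1 differed by -0.85 and -0.72, Nefl by -0.34 and -0.20, and Snap25 by -0.16 and -0.24. Tubb3 differed by -0.15 and -0.18, and Eno2 by 0.02 and -0.01. None of these 12 markers passed for kainate in limma in either genotype. An unadjusted p under 0.05 was found for 4 of them in mutants (Cdh5, Hba-a1, Tek and Map2) and 3 in controls (Cdh5, Map2 and Snap25). The share of all probe sets under that threshold is not given here, and nothing is read from these counts. The 3 choroid plexus markers, Folr1, Kl and Ttr, differed by -0.13, 0.44 and -0.19 in mutants. In controls they differed by -1.03, -0.70 and -0.85, and none passed in either genotype. The part of these cells in the responses was not tested.

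For the difference in response, 0 of 9 member probe sets passed in limma, and 3 had an unadjusted p under 0.05: both of Gadd45b and that of Btg2. Over all probe sets 0% passed and 0.861% had an unadjusted p under 0.05. Nothing is read from these shares, because the members were chosen with this difference known for Gadd45b. Both Gadd45b probe sets also read the same RNA. Without control kainate replicate 3, 1 member passed, the brighter Gadd45b probe set. The members' median difference in response was -0.04, beside -0.05 for all probe sets.

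Between genotypes under saline 0 of 9 passed in limma, where 0.137% of all probe sets passed (0.105% as higher, 0.0322% as lower). At an unadjusted p under 0.05 there was 1 member, Btg2, against 2.57% of all. The mutant arrays lay wholly above the control arrays for 2 member probe sets and wholly below for 1, where these shares were 3.85% and 3.24% of all. After kainate 0 members were higher and 2 lower in mutants, both of Gadd45b, where 0.354% of all passed (0.217% as higher, 0.137% as lower). There the mutant arrays lay wholly above for 1 member probe set and wholly below for 4, where these shares were 4.03% and 4.97% of all. Without mutant kainate replicate 1, mutant kainate replicate 3 or control kainate replicate 2, 1 passed, the brighter one. Averaged over treatments the same 2 probe sets passed, at -0.85 (SE 0.12) and -0.95 (SE 0.17), where 0.612% of all passed (0.419% as higher, 0.193% as lower). The call of the dimmer one was lost in 10 of the 12 fits that left out 1 array, at -1.03 to -0.83. Nothing is read from these shares either, because the members were chosen with genotype differences known.

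**Figure D4:**
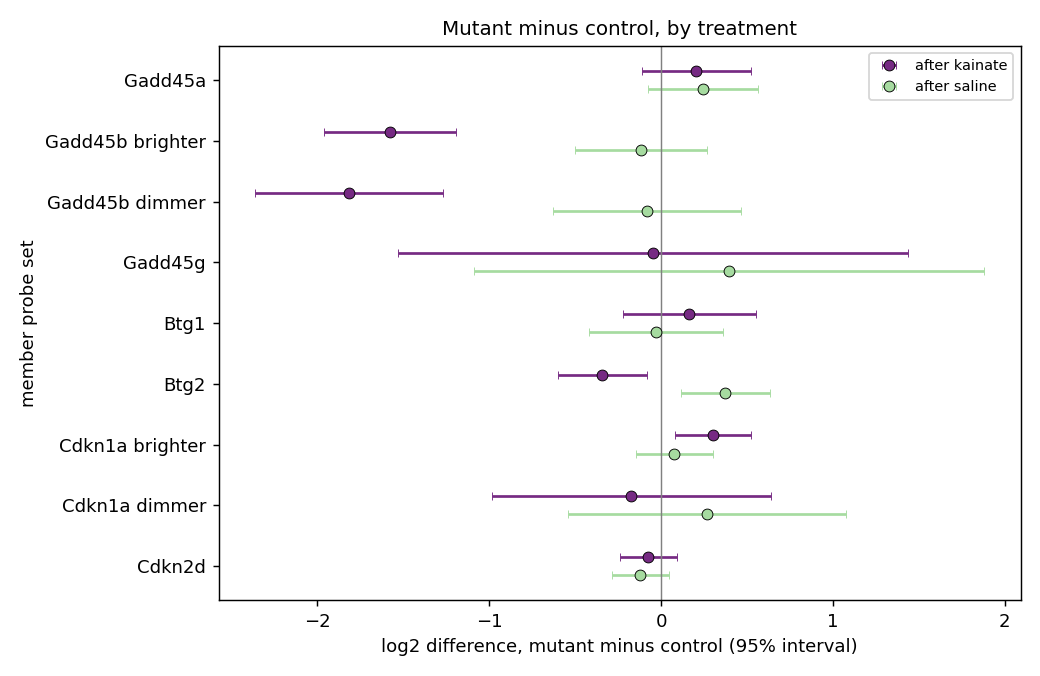
log2 difference of mutants minus controls for each probe set (rows), after kainate (purple) and after saline (green). Points are limma estimates with 95% intervals (3 arrays per group). Gadd45b lies at -1.58 and -1.82 after kainate and near 0 after saline, and Btg2 lies on opposite sides of 0.

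Markers of other cells differed between the genotypes in the same arrays. The log2 of the summed level of 9 microglial markers was 12.55 to 12.79 in mutant kainate and 12.23 to 12.50 in mutant saline arrays. Control kainate arrays held 11.55 to 11.69, and control saline arrays 11.32 to 11.48. Of these 9 markers, 6 passed as higher in mutants after kainate and 4 under saline, among them C1qa, C1qb and Tyrobp under both. Csf1r, Aif1 and Cx3cr1 passed under neither treatment, at 0.74, 0.10 and -0.05 after kainate and 0.67, 0.75 and 0.43 under saline. For the 3 pyramidal neuron markers measured, the log2 of the summed level was 9.46 to 9.79 in mutant kainate arrays. It was 9.04 to 9.50 in mutant saline arrays. In controls it was 10.06 to 10.52 after kainate and 10.09 to 10.33 after saline. Mutants differed from controls by -0.94 after kainate and -1.14 under saline for Wfs1, -0.43 and -0.74 for Neurod6, and -0.22 and -0.03 for Pcp4. None of these differences passed in limma, while Wfs1 passed averaged over treatments (-1.04, limma adjusted p = 0.0082). For 5 astrocyte markers the log2 of the summed level was 12.71 to 12.97 in mutant kainate and 12.75 to 13.04 in mutant saline arrays. Control kainate arrays held 12.34 to 12.51, and control saline arrays 12.30 to 12.48. Of these Gfap passed for the genotype effect averaged over treatments (1.62, limma adjusted p = 0.00554). The genotypes did not overlap in any of these 3 lists under either treatment. Their part in the genotype differences was not tested, and in bulk tissue fewer cells of a type and less RNA per cell cannot be told apart.

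Relatives, partners and downstream genes of these families were taken from 4 lists. Of 73 such genes, 56 were measured, and 2 were higher and 0 lower after kainate in mutants, while 3 were higher and 0 lower in controls, where 0.266% and 0.282% of all probe sets passed as higher. Their median differences were -0.01 in mutants and 0.04 in controls, beside -0.02 and 0.05 over all probe sets. In limma 0 passed for the difference in response (1 at an unadjusted p under 0.05), for genotype under saline (1), for genotype after kainate (5) or for genotype averaged (3). Of all probe sets, 0.861% were under that unadjusted threshold for the difference in response and 2.57% for genotype under saline. The shares for genotype after kainate and averaged are not given here, and nothing is read from those counts.

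Tob1, the Btg relative that also binds the CCR4-NOT deadenylase, rose in both genotypes. It stood at 10.41, 10.45 and 10.60 in mutant kainate arrays and 9.31, 9.39 and 9.48 in mutant saline arrays, against 10.40, 11.04 and 10.80 in control kainate and 9.58, 9.43 and 9.40 in control saline arrays. The rise was 1.09 (SE 0.14, 2.13-fold, limma adjusted p = 0.00658) in mutants and 1.28 (SE 0.14, 2.42-fold, adjusted p = 0.00172) in controls. Groups did not overlap between treatments, and they overlapped between genotypes. The dimmer Tob1 probe set, at percentile 46.2, gave -0.10 (SE 0.17) in mutants and 0.14 (SE 0.17) in controls, so the rise rests on the brighter one. With the probe sets averaged it was 0.50 in mutants and did not pass (adjusted p = 0.239, and 0.000286 to 0.239 over the alternatives).

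Plk2, a polo-like kinase induced by neuronal activity and by p53, rose by 0.60 (SE 0.09, 1.52-fold) in both genotypes, with limma adjusted p = 0.0229 in mutants and 0.0218 in controls. Its levels were 10.52, 10.49 and 10.41 in mutant kainate, 9.78, 9.94 and 9.89 in mutant saline, 10.79, 10.58 and 10.49 in control kainate and 9.93, 10.10 and 10.02 in control saline arrays. The difference in response was -0.00 (SE 0.13). Each call held in 13 of 22 alternatives. Both were lost with arrays centred on their medians and with replicates 2 and 3 only, and the one in controls with only the arrays compared. The call in mutants was also lost without any one of the 6 mutant arrays or control saline replicate 3, and that in controls without mutant kainate replicate 2, mutant saline replicate 3, control kainate replicate 2 or any control saline array, with differences of 0.56 to 0.64 in mutants and 0.52 to 0.67 in controls over all 12 such fits.

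Ppp1r15a (Gadd34), which shares the growth arrest name and directs a phosphatase to eIF2 alpha, was the third. It stood at 4.36, 4.76 and 3.89 in mutant kainate arrays and 3.68, 3.09 and 2.98 in mutant saline arrays, against 6.06, 5.29 and 4.79 in control kainate and 3.12, 2.79 and 2.94 in control saline arrays. Each mutant kainate array lay below each control kainate array. The response was 1.09 (SE 0.32) in mutants, which did not pass, and 2.43 (SE 0.32) in controls, which did. The difference in response, -1.34 (SE 0.45), did not pass (limma adjusted p = 0.939).

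Of 5 other CDK inhibitors measured (Cdkn1b, Cdkn1c, Cdkn2a, Cdkn2b and Cdkn2c), 0 passed in any comparison in limma, and 0 had an unadjusted p under 0.05. Their kainate responses ran from -0.07 to 0.02 in mutants and from -0.45 to 0.19 in controls. Among 21 cyclins, CDKs and Rb family genes 0 passed in limma in any comparison, at most 1 in each had an unadjusted p under 0.05, and the kainate responses ran from -0.42 to 0.24 in mutants and from -0.33 to 0.34 in controls. Of 17 measured genes of the p53 pathway, Plk2 passed in each genotype and 16 did not. At an unadjusted p under 0.05 there were 2 of 17 in mutants and 7 of 17 in controls. The share of all probe sets under that threshold is not given here for kainate, and nothing is read from these counts. The responses ran from -0.31 to 0.60 in mutants and from -0.71 (Ccng2, a cyclin linked to growth arrest) to 0.60 in controls.

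Across the 12 arrays the members fell into several patterns, described by Pearson's r between probe sets with no test, since the arrays share 4 group means. Btg2 and Gadd45g had r = 0.959, and Btg2 and Cdkn2d had r = -0.954. Gadd45b followed Btg2 at 0.824 and Gadd45g at 0.760. With the other members Gadd45a had r between -0.294 and 0.285. Of 8244 other genes, those most like Btg2 were Dusp1 (0.995), Ccn1 (0.995) and Egr2 (0.994), and those most like Gadd45g were Egr1 (0.979), Rgs2 (0.972) and Ptgs2 (0.957). For Gadd45b they were Nfil3 (0.981), Atf3 (0.955) and Tiparp (0.951). These last genes had smaller kainate responses in mutants than in controls, at 1.04 and 2.52 for Nfil3, 2.82 and 4.61 for Atf3, and 1.15 and 1.73 for Tiparp. Their values are set beside 0.86 and 2.32 for Gadd45b, and the rule of likeness favours such a pattern.

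Of the rest, Cdkn2d was most like Necap1 (0.948), Ppp2r2b (0.942) and Tef (0.938), each lower after kainate in both genotypes (-0.46, -0.43 and -0.60 in mutants, -0.60, -0.60 and -0.71 in controls). Btg1 was most like Klf2 (0.942), Tmem159 (0.927) and Cxcl1 (0.923). Cdkn1a was most like Prune1 (0.919), Tac2 (0.904) and Dnajb9 (0.895), and Gadd45a was most like Anp32b (0.899), Rlbp1 (0.898) and Stx5a (0.898).

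**Figure D5:**
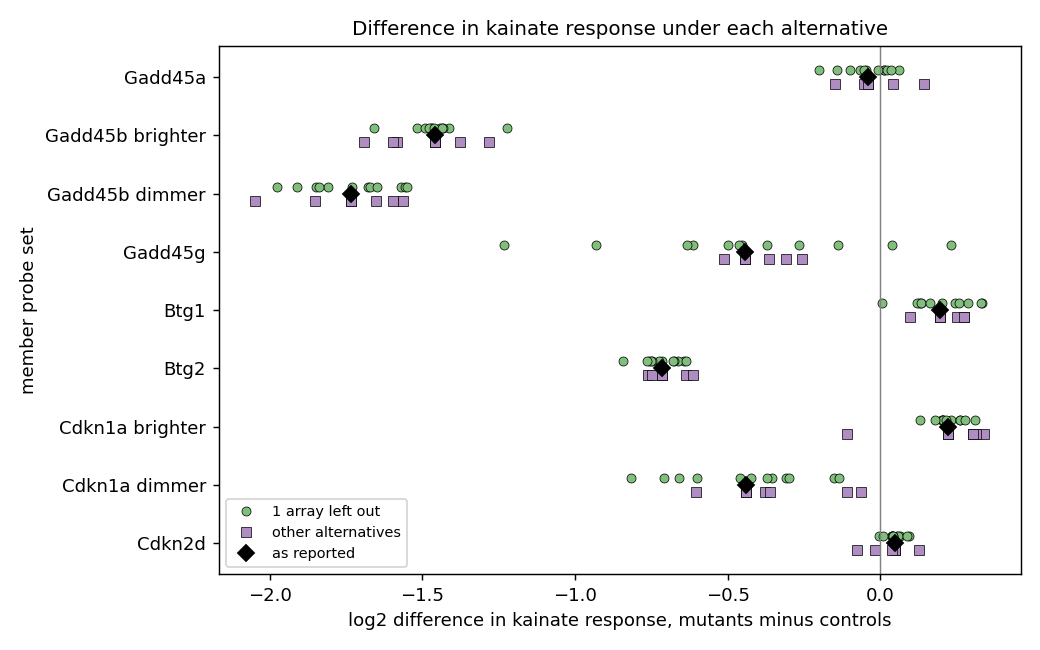
Difference in kainate response, mutants minus controls (log2), for each probe set (rows), as reported (diamonds), with 1 array left out (circles) and under the other alternatives (squares). Both Gadd45b probe sets and Btg2 stay below 0 throughout, while Gadd45g spans -1.23 to 0.23.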

How the data were processed

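The authors deposited log2 expression values per probe set, made with GCRMA in R 2.4.1, per the submitters' processing notes; the GCRMA version, and whether the arrays were processed together, are not given in the sources used here. GCRMA corrects background by probe sequence and normalises probe intensities between arrays, which can compress differences of dim probe sets; the deposited probe set values did not have equal distributions, with interquartile ranges of 3.74 to 4.61. Arrays give no counts, and their number limits the precision. From the 12488 probe sets, 66 control probe sets were left out and no level filter was set. limma 3.58.1 in R 4.3.3 fitted 1 mean per group to all 12 arrays, with 8 residual degrees of freedom and 2.48 prior ones. The two-sided p values were adjusted by Benjamini-Hochberg over 12422 probe sets, with a threshold of 0.05. The method was tested on simulated data with independent noise in each array, without the deviations shared by replicate number. Every probe set with 1 member symbol is reported, the probe set with the highest mean represents a gene, and listed genes are named where they passed in any of the 6 comparisons. For likeness, the 3 genes with the highest r are named. Symbols came from the platform annotation, and 10817 of 10833 single-symbol probe sets matched RefSeq by Entrez identifier. The members and lists were chosen with earlier results of these data known. Same-numbered arrays were not treated as pairs in the main fit. Deviations from group means correlated at 0.368 to 0.848 for replicate 1, 0.302 to 0.583 for replicate 2 and -0.0109 to 0.621 for replicate 3. Between differently numbered arrays of different groups they correlated at -0.722 to 0.568. The replicate block among the alternatives allows for a shift by replicate number. Alternatives were a replicate block, replicate 1 as a batch, other scalings, a level filter, another prior, only the arrays compared, array weights, averaged probe sets, replicates 2 and 3 only, and each array left out.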

Additional observations from a re-analysis of the deposited data

How the results depend on the processing

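Counts of member probe sets past the threshold, of 9, were recomputed under up to 22 alternatives, and the log2 differences of each probe set with them; no difference that passed under either setting changed its sign. For kainate in controls the count stayed at 4 or 5 throughout. For kainate in mutants (3) it was 7 with array weights and 1 to 4 with each array left out. For the difference in response (0) it was 2 with array weights and 0 to 1 with each array left out. For genotype under saline (0) it was 1 with array weights, which was Btg2. For genotype after kainate (2) it was 1 with arrays centred on their medians, 0 with only the arrays compared, 1 of 7 genes with probe sets averaged per gene, and 1 to 2 with each array left out. For the averaged genotype effect (2) it was 0 with arrays centred on their medians, 1 of 7 genes with probe sets averaged, 1 with replicates 2 and 3 only, and 1 to 2 with each array left out. With the replicate block the counts were 5, 3, 0, 0, 2 and 2 in this order, as without it, although within the count for mutants the brighter probe set of Gadd45b passed and Cdkn2d did not. Array weights ran from 0.0321 (control kainate replicate 3) to 6.17 and gave 1619 calls over all probe sets for kainate in mutants, against 37 without them. The cause of these changes was not tested, except that fewer arrays or fewer probe sets enter some fits by construction. Dim probe sets, such as that of Cdkn1a at percentile 2.09, limit what can be seen.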

Other observations

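The dimmer Cdkn1a probe set was lowest on the replicate 1 array in each of the 4 groups, at 0.62 in mutant kainate, 0.61 in mutant saline, 0.62 in control kainate and 0.50 in control saline arrays, against 0.75 to 1.99 on the other 8 arrays. Gadd45g had the same split among saline arrays, with 3.43 in mutants and 3.26 in controls on replicate 1 against 4.99 to 5.98 on the others, while its kainate arrays had none. Replicate 1 therefore moved the size of the Gadd45g response more than that of Btg2, which was 4.58 in mutants and 5.50 in controls within replicate 1, and 4.67 and 5.28 within replicates 2 and 3.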
